A study of Danio rerio with 20 samples.

Results

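Splicing factors and their kinases were followed across zebrafish larvae exposed to perfluorooctanesulfonic acid (PFOS) or to a blend of persistent organic pollutants (POP) that contains it. The set was chosen by gene symbol. It took symbols that begin with srsf, snrp, hnrnp, sf3, tra2, rbm, u2af or luc7l, or with clk and a digit, and added rsrp1. This matched 116 of the 22851 symbols in the deposited table, with 392 of its 48838 transcripts, and each symbol was represented by its transcript of highest mean. Of these, 114 reached 0 log2 RPM (RPM, reads scaled to library size and not divided by transcript length) in at least 4 libraries and are described here, among 19289 genes tested. The genes rbm11 and rbm46 did not reach that level. The 114 were 16 srsf, 4 clk, 2 tra2, 3 u2af, 2 luc7l, 9 sf3, 12 snrp, 23 hnrnp and 42 rbm genes, and rsrp1. The rbm prefix means only RNA-binding motif, and some of its genes act in RNA editing, methylation or stability rather than in splicing.

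Larvae of the AB wild-type strain were exposed from 6 to 96 hours post fertilization (hpf) and collected whole at 96 hpf. POP70 and POP10 larvae received the mixture at 70 and 10 times blood levels of a Scandinavian population, PFOS70 and PFOS10 larvae received PFOS alone in the amount each mixture holds, and Control larvae received 0.1% dimethyl sulfoxide (a solvent level is labelled for Control alone). Each of the 5 groups had 4 libraries, each from a pool of 10 larvae, and no label says whether the pools are of different clutches. The p-values therefore rest on variation among pools. In whole larvae, fewer cells of a type and less RNA per cell cannot be told apart.

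Splicing removes introns from pre-mRNA. U1 and U2 small nuclear ribonucleoproteins, built on a ring of Sm proteins, mark the 5′ splice site and the branch site, with U2AF holding the 3′ splice site and the SF3 complexes seating U2. SR proteins (srsf genes) bind exons through RNA-recognition motifs and recruit these particles through a tail rich in arginine and serine, and hnRNP proteins often oppose them. CLK kinases phosphorylate that tail in the nucleus and so set where SR proteins go and how active they are. Many SR protein and CLK genes tune their own output in vertebrates through introns or exons that keep part of the transcript from being translated.

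Libraries held 8572287 to 11243573 reads, libraries of 1 group correlated at 0.972 to 0.988 across genes, and at most 1.26% of transcripts with over 20 reads had equal reads in any pair of libraries. PFOS10 libraries stood apart from the rest: they lay at -61.5 to -49.4 on the first principal component (39.6% of the variance), against -21.9 to 45.0 for the other 16, and had 4014 to 4120 transcripts with 0 reads, against 3340 to 3886. Every comparison with PFOS10 below rests on these 4 libraries.

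PFOS10 was the group in which most splicing genes stood highest. Its mean was the highest of the 5 groups in 84 of the 114 genes, among them 16 of 16 srsf and 22 of 23 hnrnp genes, while PFOS70 had the lowest mean in 55. The order of group means was not counted over all genes, so these counts have no share to be read against. Against Control, 93 of 114 differences were positive in PFOS10, with a median of 0.13 log2, whereas 8803 of all 19289 genes (45.6%) were positive, with a median of -0.03. By limma with Benjamini-Hochberg adjustment over all genes, 11 of the 114 rose in PFOS10 and 2 fell. Of all genes 1.28% rose and 6.97% fell. All 4 PFOS10 libraries lay above all 4 Control libraries in 16 of the 114 and below them in 3 (2.86% and 9.11% of all genes). The 11 were srsf1b, srsf1a, rsrp1, u2af2a, luc7l3, rbm4.1, rbm4.2, rbm5, rbm6, rbm12b and rbmx, and the 2 were rbm24b and rbm47. Without Control replicate 4 only srsf1b and rsrp1 passed (adjusted p of the other 11 up to 0.18 over the libraries left out), and without PFOS10 replicate 4 the number was 24. The number was 5 without Control replicate 1, PFOS10 replicate 1 or PFOS10 replicate 3, and 8 without Control replicate 2 or PFOS10 replicate 2. Calls over all genes moved too, from 1591 to 367 without Control replicate 4 and to 2516 without PFOS10 replicate 4. With the medians of all libraries made equal, 37 passed (35 higher), and over all genes 1132 of 2219 calls were then higher in place of 247 of 1591 (253 of 786 with quantile normalization).

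The other 3 exposures gave no splicing gene past the threshold against Control. The count was 0 of 114 in POP70, POP10 and PFOS70 with limma and 0 with voom, where 0.0156%, 0.00% and 0.00% of all genes passed. Before adjustment, 17 genes in POP70, 16 in POP10 and 12 in PFOS70 had p under 0.05 (10.2%, 9.63% and 11.7% of all genes). Their median differences from Control were -0.03, -0.04 and -0.07 log2, beside 0.00, 0.01 and 0.02 over all genes. POP70 against POP10 also gave 0 of 114 (0.00% of all genes, voom 0), with 2 at an unadjusted p under 0.05 (3.01% of all genes).

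Most calls came from PFOS70 and POP10 against PFOS10. POP70 was not compared with PFOS10. In PFOS70 against PFOS10, 51 of 114 genes were lower and 5 higher (10.8% and 23.6% of all genes), and in POP10 against PFOS10, 39 were lower and 6 higher (11.6% and 19.8% of all genes). Libraries did not overlap in 57 lower and 3 higher genes in PFOS70 against PFOS10 (8.68% and 20.6% of all genes), and in 35 and 5 in POP10 against PFOS10 (8.32% and 16.8%). Positive differences numbered 14 and 25 of 114 (54.9% and 54.5% of all genes). Both comparisons use the PFOS10 libraries. The median of the 114 was -0.22 log2 in PFOS70 against PFOS10 and -0.18 in POP10 against PFOS10, with 0.05 and 0.04 over all genes. Library medians differed by 0.142 and 0.102 log2 between these groups, and with medians made equal 85 and 68 genes were lower and 4 and 3 higher, at medians of -0.36 and -0.28. Over all genes 3466 of 8399 and 3019 of 7218 calls were then higher, in place of 4557 of 6634 and 3812 of 6051 (3073 of 6937 and 2690 of 5604 with quantile normalization). Without PFOS70 replicate 1 the first count was 36 in place of 56, and without POP10 replicate 1 the second was 30 in place of 45. Over all genes the calls were then 4986 in place of 6634 and 4249 in place of 6051.

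**Figure D1:**
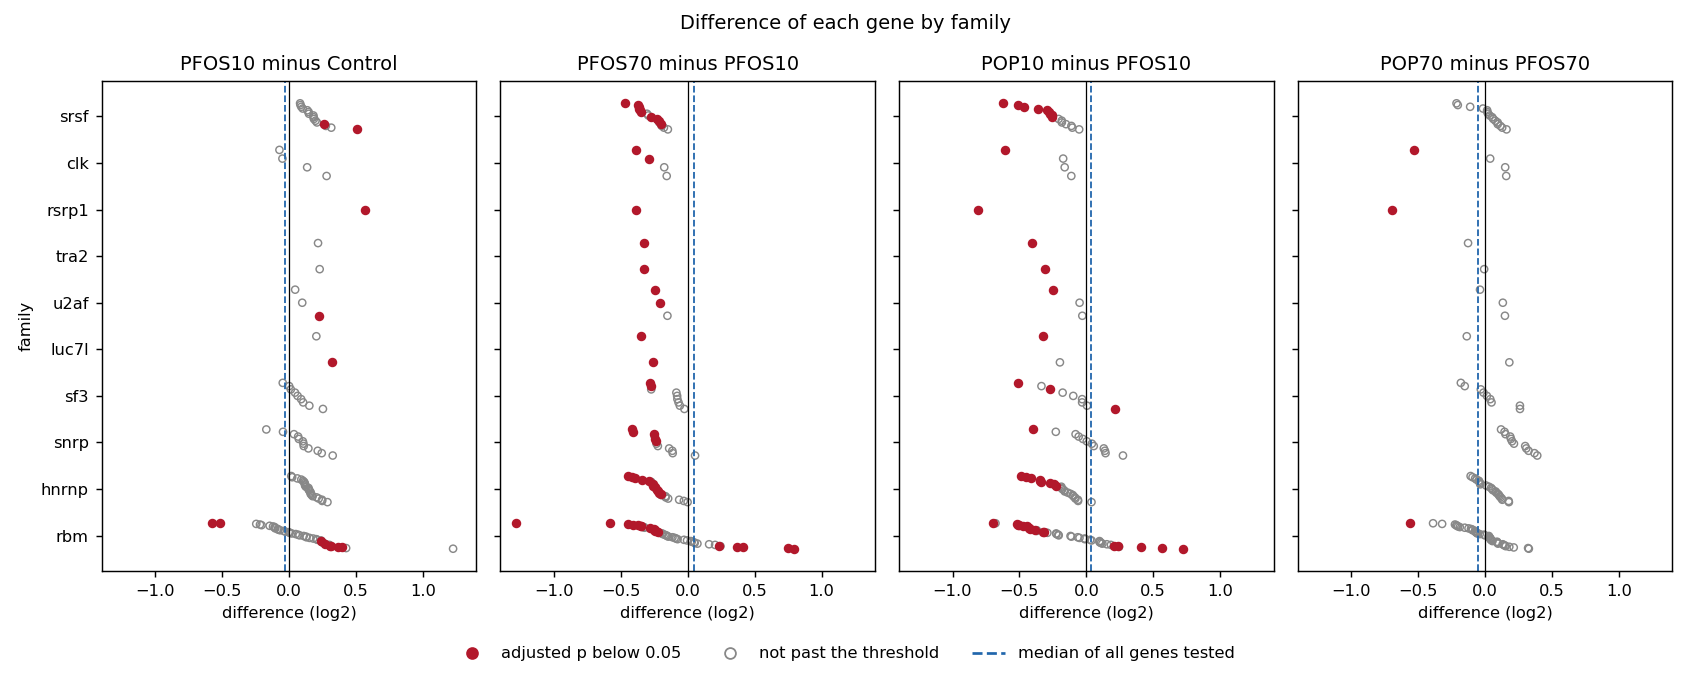
Difference of each of the 114 genes (x axis, log2) by family (y axis) in 4 comparisons. Filled points passed the threshold, open points did not, and the dashed line is the median of all 19289 genes; all 16 srsf points lie right of 0 in PFOS10 minus Control and left of 0 in PFOS70 minus PFOS10 and POP10 minus PFOS10.

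Among the SR proteins, srsf1b changed most in PFOS10. It encodes SRSF1, the founding member of the family, which binds exonic enhancers and helps U1 settle on the 5′ splice site. Its transcript (chromosome 21, 39567505 to 39577517, GRCz11) was at 7.29, 7.04, 7.15 and 7.32 log2 RPM in POP70, at 7.32, 7.32, 7.23 and 7.17 in POP10, at 7.38, 7.39, 7.50 and 7.37 in PFOS70, at 7.90, 7.91, 7.93 and 7.79 in PFOS10 and at 7.40, 7.52, 7.52 and 7.08 in Control. All 4 PFOS10 libraries lay above the 16 others. The difference from Control was 0.50 ± 0.09 log2 (SE, limma adjusted p = 0.00258), a 1.42-fold rise. In PFOS70 the gene was 1.39-fold lower than in PFOS10 (adjusted p = 0.000396) and in POP10 1.54-fold lower (0.000121), and each of these calls held with every library left out in turn. Its duplicate srsf1a rose 1.2-fold, to 8.48 ± 0.10 log2 RPM in PFOS10, against 8.22 ± 0.10 in Control (SD, n = 4 each, adjusted p = 0.0318). That rise was lost without Control replicate 1, 2 or 4 or PFOS10 replicate 1 or 3 (adjusted p up to 0.103), and with quantile normalization (0.0756).

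The rest of the family leaned the same way by smaller amounts. All 16 srsf differences were positive in PFOS10 against Control (median 0.18 log2, range 0.08 to 0.50), and 2 passed (1.28% of all genes were higher). All 16 were negative in PFOS70 against PFOS10 (median -0.28), where 10 passed (10.8% of all genes were lower), and in POP10 against PFOS10 (median -0.26), where 9 passed (11.6%). Medians of the family per library ran from 0.04 to 0.24 log2 above the Control mean in PFOS10, against -0.13 to 0.11 in Control, so the groups overlapped. With quantile normalization 15 of 16 were negative in POP10 against PFOS10, and the other counts stayed at 16.

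Among the members, srsf5b, srsf4, srsf11 and srsf3b fell in PFOS70 against PFOS10 by 0.36, 0.35, 0.36 and 0.37 log2 (limma adjusted p = 0.000721, 0.00205, 0.00234 and 0.00508), and srsf5a by 0.22 (0.00937). SRSF3 is the smallest member of the family, and SRSF4 one of those with the longest tail of arginine and serine. In each of these 5 all 4 PFOS70 libraries lay below all 4 PFOS10 libraries. Also lower were srsf1a (-0.27, 0.00667), srsf10b (-0.37, 0.0176), srsf2b (-0.23, 0.03) and srsf2a (-0.20, 0.0313). SRSF2 marks nuclear speckles, where splicing factors are stored, and SRSF10 becomes a splicing repressor when dephosphorylated in heat-shocked mammalian cells. The calls of srsf10b, srsf2a and srsf2b were lost without PFOS70 replicate 1 or 4 (adjusted p up to 0.0518, 0.0907 and 0.129). Those of srsf2a and srsf2b were also lost without PFOS10 replicate 2 or 3, and that of srsf2a without PFOS10 replicate 1 or PFOS70 replicate 2.

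In POP10 against PFOS10, srsf7b fell by 0.51 log2 (limma adjusted p = 0.0037), srsf5a by 0.26 (0.00445), srsf5b by 0.28 (0.00563), srsf10b by 0.46 (0.00572) and srsf1a by 0.27 (0.00884). These 5 passed with each library left out in turn. Calls for srsf2b (-0.26, 0.0193), srsf3b (-0.29, 0.0213) and srsf9 (-0.36, 0.023) were lost without POP10 replicate 1. That of srsf2b was also lost without PFOS10 replicate 2 or 3, that of srsf3b without PFOS10 replicate 1 or POP10 replicate 4, and that of srsf9 without PFOS10 replicate 2 or 3 or POP10 replicate 2 (adjusted p up to 0.0699, 0.0887 and 0.0777). The transcripts of srsf7b, srsf10b and srsf11 overlap another gene in the table, so their reads could not be assigned with certainty. No test was passed by srsf3a, srsf6a, srsf6b and srsf7a in any comparison, with adjusted p of at least 0.0521.

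The gene rsrp1 differed from PFOS10 in every comparison with that group. It encodes a small protein rich in arginine and serine, like the SR protein tail, whose role is little known. Its transcript (chromosome 13, 45468403 to 45473183) was at 8.08, 8.03, 8.05 and 7.88 log2 RPM in POP70, at 8.62, 8.41, 8.10 and 8.001 in POP10, at 8.68, 8.66, 8.89 and 8.60 in PFOS70, at 9.13, 9.34, 9.05 and 8.86 in PFOS10 and at 8.74, 8.59, 8.44 and 8.34 in Control. Means ran POP70, POP10, Control, PFOS70 and PFOS10 from low to high. POP10 overlapped POP70, Control and PFOS70, and PFOS70 overlapped Control (limma adjusted p = 0.5905). PFOS10 was 1.48-fold above Control (0.57 ± 0.12 log2 SE, limma adjusted p = 0.00928) with no overlap, and this call held with each library left out. PFOS70 was lower than PFOS10 by -0.39 ± 0.12 log2 (adjusted p = 0.0175, and 0.0722 without PFOS10 replicate 2), with overlap, and POP10 was lower than PFOS10 by -0.81 ± 0.12 log2 (0.000217), with none.

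Of the kinases, clk4a was lower with the mixture than with PFOS alone, but at the higher level that call was not firm (below). It is 1 of 4 zebrafish CLK genes measured. Its transcript (chromosome 14, 6933400 to 6943934) was at 8.28, 8.46, 8.40 and 8.10 log2 RPM in POP70, at 8.75, 8.64, 8.23 and 8.46 in POP10, at 8.86, 8.61, 9.02 and 8.87 in PFOS70, at 9.07, 9.26, 9.15 and 9.04 in PFOS10 and at 8.90, 9.02, 8.76 and 8.72 in Control. PFOS10 lay above all Control libraries, yet the difference of 0.28 ± 0.11 log2 did not pass (limma adjusted p = 0.105). POP10 was 1.53-fold lower than PFOS10 (-0.61 ± 0.11 log2, adjusted p = 0.000666), with each library left out as well. PFOS70 was lower than PFOS10 by -0.29 ± 0.11 (0.0404), a call that held without PFOS10 replicate 4 or PFOS70 replicate 3 and missed the threshold without any other of the 8 libraries (adjusted p up to 0.154).

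The kinase gene clk2a was lower in PFOS70 than in PFOS10. In PFOS70 it stood at 7.47 ± 0.13 log2 RPM, against 7.85 ± 0.13 in PFOS10 (SD, n = 4 each, limma adjusted p = 0.00142), with no overlap and with each library left out. It did not pass in POP10 against PFOS10 (-0.17 ± 0.08 log2 SE, 0.114). The genes clk4b and clk2b did not pass any test (smallest adjusted p = 0.1265, clk2b in PFOS70 against PFOS10). In PFOS10 against Control 0 of the 4 clk genes passed, and 2 were positive.

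**Figure D2:**
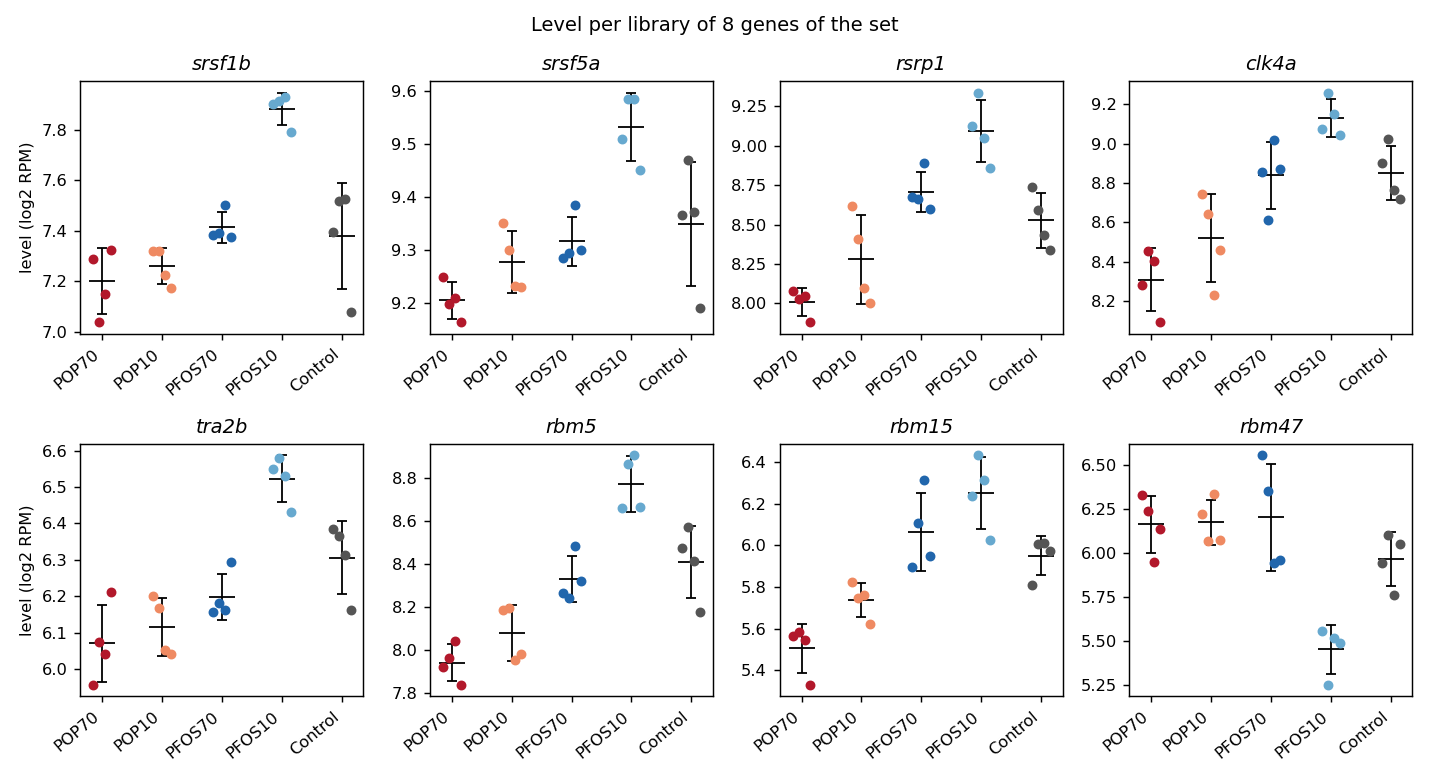
Level in log2 RPM (y axis) of 8 genes in the 20 libraries, by group (x axis). Points are libraries and bars the mean ± SD of 4; in srsf1b the PFOS10 points lie above the other 16, in rsrp1, clk4a and rbm15 the POP70 points lie below those of PFOS70, and in rbm47 the PFOS10 points lie below those of Control.

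Both tra2 genes, which encode Transformer-2 proteins that bind purine-rich enhancers beside SR proteins, stood highest in PFOS10. In tra2b the libraries were at 5.96, 6.07, 6.04 and 6.21 log2 RPM in POP70, at 6.20, 6.17, 6.05 and 6.04 in POP10, at 6.16, 6.18, 6.16 and 6.29 in PFOS70, at 6.55, 6.58, 6.53 and 6.43 in PFOS10 and at 6.38, 6.36, 6.31 and 6.16 in Control. PFOS10 lay above the 16 others. The rise over Control was 0.22 ± 0.07 log2 SE and missed the threshold (limma adjusted p = 0.0575), whereas PFOS70 and POP10 were lower than PFOS10 by -0.32 ± 0.07 (0.00144) and -0.41 ± 0.07 (0.00054). For tra2a the same differences were 0.23 ± 0.07 (0.0575), -0.33 ± 0.07 (0.00209) and -0.31 ± 0.07 (0.00417). All 4 of the calls passed with each library left out in turn.

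All 3 u2af and both luc7l genes were positive in PFOS10 against Control and negative in PFOS70 and in POP10 against PFOS10. With quantile normalization 2 of the 3 u2af genes were positive in POP10 against PFOS10 (median 0.03 log2), and the other counts stayed the same. U2AF2, which binds the polypyrimidine tract, is encoded by 2 genes, of which u2af2a was higher in PFOS10 than in Control (7.09 ± 0.08 against 6.87 ± 0.11 log2 RPM, SD, n = 4 each, limma adjusted p = 0.048) and lower in PFOS70 and in POP10 than in PFOS10 (-0.25 ± 0.07 log2 SE in each, 0.00964 and 0.0111). The rise over Control passed only without Control replicate 3 or PFOS10 replicate 4 among the 8 libraries left out (adjusted p up to 0.18) and was lost under 7 of 12 other settings, and the POP10 call was lost with quantile normalization (0.052). Its duplicate u2af2b passed no test. For u2af1, which reads the AG of the 3′ splice site, PFOS70 was lower than PFOS10 (-0.21 ± 0.07, 0.0331), a call that held only without PFOS10 replicate 4 or PFOS70 replicate 2 among the 8 libraries left out (adjusted p up to 0.101). LUC7-like proteins travel with U1 and help choose 5′ splice sites. In luc7l3 PFOS10 was at 7.55 ± 0.11, against 7.23 ± 0.17 in Control (0.0221), and POP10 was lower than PFOS10 by -0.33 ± 0.08 (0.00572) and PFOS70 by -0.26 ± 0.08 (0.0188, and 0.0569 without PFOS10 replicate 1). The rise of luc7l3 over Control was lost without Control replicate 1 or 4 or PFOS10 replicate 1 or 3 (adjusted p up to 0.0857). In luc7l PFOS70 was lower than PFOS10 by -0.35 ± 0.08 (0.00293), with no overlap.

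Of the SF3 complexes, sf3b1 was lower in both PFOS70 and POP10 than in PFOS10. Of 9 sf3 genes, 0 passed in PFOS10 against Control, 2 were lower in PFOS70 than in PFOS10, and 2 were lower and 1 higher in POP10 than in PFOS10. The shares of 22.2% and 33.3% called lie beside 34.4% and 31.4% of all genes. SF3B1 is the large scaffold that grips the branch site. In sf3b1, PFOS10 was at 9.73 ± 0.08 log2 RPM, PFOS70 at 9.45 ± 0.07 and POP10 at 9.46 ± 0.06 (SD, n = 4 each), with limma adjusted p = 0.00154 and 0.00307 against PFOS10, and with each library left out. The other lower genes were sf3b5 in PFOS70 (-0.28 ± 0.10 log2 SE, 0.0298) and sf3b4 in POP10 (-0.51 ± 0.17, 0.0307), the first lost without PFOS10 replicate 3 or 4 or PFOS70 replicate 1 or 2 and the second without PFOS10 replicate 3 or POP10 replicate 1 or 2 (adjusted p up to 0.0949 and 0.117). SF3B6, a small subunit that touches the branch site, went the other way: sf3b6 was higher in POP10 than in PFOS10 (0.21 ± 0.07, 0.0239), a call lost without PFOS10 replicate 2 or POP10 replicate 2 or 3 (up to 0.0684) and with medians made equal (0.272).

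Genes of Sm and other snRNP proteins stood lowest in PFOS70. Of 12 snrp genes, 5 were lower in PFOS70 than in PFOS10 and 0 higher (10.8% and 23.6% of all genes): snrpd1 (-0.41 ± 0.11 log2 SE, limma adjusted p = 0.00828), snrpb (-0.42 ± 0.12, 0.0087), snrpa (-0.24 ± 0.09, 0.0423), snrpe (-0.25 ± 0.10, 0.048) and snrpc (-0.24 ± 0.09, 0.0489). SNRPB, SNRPD1 and SNRPE are Sm ring proteins, and SNRPA and SNRPC belong to U1. The calls of snrpd1 and snrpb passed with each library left out. The other 3 missed the threshold without PFOS70 replicate 1, 3 or 4, and snrpa and snrpc also without PFOS70 replicate 2. They missed it too without PFOS10 replicate 1, 2 or 3 (snrpa), 3 or 4 (snrpe) and 1, 2 or 4 (snrpc) (adjusted p up to 0.0982 in snrpa, 0.124 in snrpe and 0.112 in snrpc). In 11 of the 12 genes PFOS70 had the lowest mean of the 5 groups, an order not counted over all genes. All 12 were higher in POP70 than in PFOS70 (median 0.21 log2, with -0.05 over all genes), but 0 passed. The smallest p there was that of snrpb2, a U2 protein gene, at 5.26 ± 0.17 log2 RPM in POP70 and 4.90 ± 0.09 in PFOS70 (adjusted p = 0.123). In POP10 against PFOS10 only snrpb passed (-0.40 ± 0.12, 0.0131, and 0.0553 without POP10 replicate 1).

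The hnRNP genes, whose proteins coat nascent transcripts and often silence exons, moved together by small amounts. All 23 differences were positive in PFOS10 against Control (median 0.15 log2), yet 0 passed, with 5 at an unadjusted p under 0.05 (25.4% of all genes). All 23 were negative in PFOS70 against PFOS10 (median -0.23), where 12 passed (10.8% of all genes were lower), and 22 of 23 in POP10 against PFOS10 (median -0.18), where 9 passed (11.6%). With quantile normalization these counts were 22, 22 and 20 of 23. In hnrnph1, whose protein binds runs of G, the libraries were at 5.53, 5.52, 5.51 and 5.49 log2 RPM in POP70, at 5.50, 5.46, 5.67 and 5.55 in POP10, at 5.24, 5.39, 5.36 and 5.35 in PFOS70, at 5.65, 5.94, 5.92 and 5.62 in PFOS10 and at 5.60, 5.58, 5.72 and 5.56 in Control. All 4 PFOS70 libraries lay below the 16 others. The difference from PFOS10 was -0.45 ± 0.08 (SE, limma adjusted p = 0.000296), and that from Control was -0.28 ± 0.08 and did not pass (0.235).

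Next by p-value in PFOS70 against PFOS10 were hnrnpm (-0.39 ± 0.08 log2 SE, limma adjusted p = 0.000889), hnrnpl, which binds CA repeats (-0.29 ± 0.07, 0.00408), hnrnpa0a (-0.42 ± 0.12, 0.00876) and hnrnpub, of the chromatin-bound hnRNP U type (-0.26 ± 0.07, 0.0101). These 4 passed with each library left out, but hnrnpub did not with its lowest-numbered transcript (0.585), and hnrnpa0a overlaps dpf2l, so its reads are uncertain. The genes hnrnpd (-0.22, 0.014) and hnrnpdl (-0.23, 0.0181) overlap each other on chromosome 10, so their reads could not be told apart, and their calls were lost without PFOS10 replicate 2 or PFOS70 replicate 1. The call of hnrnpul1l (-0.21, 0.0209) was lost without either of those or PFOS10 replicate 3. In POP10 against PFOS10, hnrnpm (-0.35 ± 0.08, 0.00333) and hnrnpa3 (-0.45 ± 0.12, 0.0068) passed with each library left out. Calls for hnrnpr (-0.49, 0.0124), hnrnpa0b (-0.41, 0.0134), hnrnpaba (-0.34, 0.0161), hnrnpul1l (-0.23, 0.0167), hnrnph1 (-0.24, 0.0246) and hnrnpa0a (-0.34, 0.0301) were lost without POP10 replicate 1, and all but that of hnrnpr without POP10 replicate 2. Those of hnrnpul1l and hnrnph1 were also lost without PFOS10 replicate 2 or 3, and that of hnrnpa0a without PFOS10 replicate 1 or 3 (adjusted p of the 6 up to 0.109).

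The rbm genes went in both directions. Of 42, 6 rose and 2 fell in PFOS10 against Control (1.28% and 6.97% of all genes). In PFOS70 against PFOS10, 13 were lower and 5 higher (10.8% and 23.6% of all genes), and in POP10 against PFOS10, 12 and 5 (11.6% and 19.8%). Of the 6 that rose over Control, rbm5 and rbm6 encode related splicing regulators of exon skipping and rbmx encodes hnRNP G, a partner of the Transformer-2 proteins. In rbm5 (chromosome 6, 53263854 to 53281518) the libraries were at 7.92, 7.96, 8.04 and 7.84 log2 RPM in POP70, at 8.18, 8.19, 7.95 and 7.98 in POP10, at 8.27, 8.24, 8.48 and 8.32 in PFOS70, at 8.66, 8.86, 8.90 and 8.66 in PFOS10 and at 8.47, 8.57, 8.41 and 8.18 in Control. PFOS10 lay above the 16 others and POP70 below every PFOS70, PFOS10 and Control library. The rise over Control was 0.36 ± 0.09 (SE, limma adjusted p = 0.0179), and PFOS70 and POP10 were lower than PFOS10 by -0.44 ± 0.09 (0.000759) and -0.69 ± 0.09 (6.05e-05), the smallest p of the set in that comparison. The rise of rbm5 was lost without Control replicate 4 or PFOS10 replicate 3 (adjusted p up to 0.0841).

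The other rises over Control were those of rbm6 (0.31 ± 0.07 log2 SE, limma adjusted p = 0.013), rbm12b (0.39 ± 0.09, 0.0175), rbmx (0.24 ± 0.07, 0.0317), rbm4.1 (0.31 ± 0.09, 0.0344) and rbm4.2 (0.27 ± 0.08, 0.0438). Each of these calls was lost without Control replicate 4, and all but that of rbm6 without Control replicate 1 or PFOS10 replicate 1 or 3. Those of rbmx, rbm4.1 and rbm4.2 were also lost without PFOS10 replicate 2, and that of rbm4.2 without Control replicate 2 (adjusted p up to 0.139). The rbm4.2 call held under only 5 of 12 other settings. The genes rbm4.1, rbm4.2 and rbm4.3 lie side by side on chromosome 7 from 22792132 to 22806803 and are close copies, so how reads were shared between them is uncertain. All 3 were lower in POP10 than in PFOS10, rbm4.1 by -0.50 ± 0.09 (0.000575) and rbm4.2 by -0.52 ± 0.08 (0.000352). In PFOS70 against PFOS10, rbm25a, whose protein works with U1, had the smallest p among the lower rbm genes (-0.58 ± 0.10, 0.00029), followed by rbm5, rbm4.1 and rbm25b (-0.37 ± 0.08, 0.00176), and these 4 passed with each library left out.

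Those that went the other way were rbm47, rbm24a, rbm24b, rbms1a and rbms2a. RBM47 is an RNA-binding cofactor of RNA editing and splicing in epithelia. In rbm47 (chromosome 1, 19353048 to 19402802) the libraries were at 6.33, 6.24, 5.95 and 6.14 log2 RPM in POP70, at 6.22, 6.07, 6.33 and 6.07 in POP10, at 6.56, 6.35, 5.94 and 5.96 in PFOS70, at 5.56, 5.25, 5.51 and 5.49 in PFOS10 and at 5.94, 6.10, 5.76 and 6.05 in Control. PFOS10 lay below the 16 others, with a fall of -0.51 ± 0.12 against Control (SE, limma adjusted p = 0.0178, lost without Control replicate 2 or 4), and PFOS70 and POP10 were higher than PFOS10 by 0.75 ± 0.12 (0.000194) and 0.72 ± 0.12 (0.00054). RBM24 is a splicing regulator of heart and skeletal muscle. In rbm24b PFOS10 was at 2.87 ± 0.26, against 3.45 ± 0.14 in Control (SD, n = 4 each, 0.0276), and PFOS70 was higher than PFOS10 by 0.80 ± 0.15 (0.000654). Its fall against Control was lost without Control replicate 1, 2 or 4 or PFOS10 replicate 1 or 2 (adjusted p up to 0.0894), and with quantile normalization (0.115). PFOS70 was also higher in rbm24a (0.41 ± 0.10, 0.00412) and rbms2a (0.37 ± 0.08, 0.00194, and 0.176 with its lowest-numbered transcript). Cardiac muscle markers moved the same way as the rbm24 genes, with medians of -1.08 log2 in PFOS10 against Control and 1.96 in PFOS70 against PFOS10. So did hepatocyte (-1.43 and 2.39), exocrine pancreas (-1.63 and 2.46) and intestine markers (-1.42 and 1.68). Skeletal muscle markers had medians of -0.08 and 0.09. The part of all these markers was not tested.

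A further gene, rbm45, was picked out after its values were seen. Its RNA-binding protein occurs in neurons. At few reads, it was at 0.73 to 1.11 log2 RPM in POP70, 1.49 to 1.84 in POP10, -1.12 to 1.45 in PFOS70, 1.95 to 2.20 in PFOS10 and 0.45 to 1.14 in Control. The libraries of POP10 and of PFOS10 lay above all Control libraries. Neither difference passed: 0.86 ± 0.38 log2 SE in POP10 (limma adjusted p = 0.512) and 1.23 ± 0.38 in PFOS10 (0.0526).

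Larvae given the mixture were then compared with larvae given the same amount of PFOS alone, at each level. At the higher level 3 of 114 genes passed, all lower in POP70 than in PFOS70 (0.0829% of all genes were lower and 0.0985% higher). In 71 the difference was positive (39.0% of all genes), and 26 had an unadjusted p under 0.05 (11.1%). Libraries did not overlap in 10 lower and 10 higher genes (3.58% and 2.16% of all genes). The 3 past the threshold were rsrp1 (-0.70 ± 0.12 log2 SE, limma adjusted p = 0.0153), rbm15 (-0.56 ± 0.10, 0.0153) and clk4a (-0.53 ± 0.11, 0.0483), 1.62-, 1.48- and 1.44-fold. All 3 were also among the 39 genes lower in POP10 than in PFOS10. That comparison has no library in common, but both use the same variance estimate of each gene, from the joint fit. RBM15 guides the complex that writes N6-methyladenosine onto RNA. In rbm15 (chromosome 8, 24788499 to 24791060) the libraries were at 5.57, 5.58, 5.54 and 5.33 log2 RPM in POP70, at 5.82, 5.75, 5.76 and 5.62 in POP10, at 5.90, 6.11, 6.31 and 5.95 in PFOS70, at 6.24, 6.43, 6.31 and 6.02 in PFOS10 and at 5.81, 6.01, 6.01 and 5.97 in Control. POP70 lay below the 16 others, and POP10 below all PFOS10 libraries (-0.51 ± 0.10, 0.00102).

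The calls at the higher level were not firm. Without PFOS70 replicate 3 or POP70 replicate 4 none of the 3 passed, and rsrp1 and rbm15 also missed the threshold without PFOS70 replicate 2 (adjusted p up to 0.0968 and 0.0949). The gene clk4a passed only without PFOS70 replicate 2 or POP70 replicate 2 (adjusted p otherwise up to 0.231), and it was lost under 9 of 12 other settings, quantile normalization (0.0646) and equal medians (0.0845) among them. With only the POP70 and PFOS70 libraries fitted, rsrp1 alone passed. Next by p-value among the lower genes was rbm5, at -0.39 ± 0.09 log2 SE (limma adjusted p = 0.0826).

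The order of libraries at both levels was also counted. In 10 of the 114, all 4 POP70 libraries lay below all 4 PFOS70 libraries and all 4 POP10 below all 4 PFOS10, as in 0.695% of all genes. They were rsrp1, clk4a, srsf1b, srsf5a, rbm4.2, rbm5, rbm6, rbm14a, rbm15 and rbmx, found after the values were seen. The order is that of the 1 transcript used for each gene. In srsf5a, 4 of 7 transcripts were positive in POP70 against PFOS70 (range -0.11 to 0.12 log2), and 0 passed. For srsf5a-202 the order was reversed there, at 8.86 to 8.90 log2 RPM in POP70 and 8.64 to 8.82 in PFOS70. All 10 genes passed in POP10 against PFOS10, but they were picked by the order of these same libraries, so this adds no support. Only rsrp1, clk4a and rbm15 passed in POP70 against PFOS70. The reverse order at both levels held in 1 gene, sf3b6 (0.321% of all genes). Against Control, the mixture groups lay lower in some of these: rbm5 by -0.47 ± 0.09 log2 SE in POP70 (limma adjusted p = 0.0685) and -0.33 ± 0.09 in POP10 (0.51), clk4a by -0.54 ± 0.11 (0.126) and -0.33 ± 0.11 (0.51), and rsrp1 by -0.52 ± 0.12 (0.197) and -0.25 ± 0.12 (0.521). None passed, and the 2 comparisons share the Control libraries. Without Control replicate 4, 1 gene passed in POP70 against Control, rbm5 (-0.55 ± 0.09, 0.0114).

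Markers of other tissues were set beside these values. In POP70 against PFOS70 0 markers of any list passed, with medians of -0.75 log2 over 10 hepatocyte markers, -0.66 over 10 exocrine pancreas markers, -0.39 over 9 intestine markers, -0.04 over 9 neuron markers and 0.17 over 16 proliferating cell markers. The medians were -0.59 over 6 lens, -0.45 over 3 germ cell, -0.14 over 11 keratinocyte, -0.11 over 9 photoreceptor, 0.07 over 14 skeletal muscle, 0.07 over 6 cardiac muscle and 0.30 over 5 erythrocyte markers. Their part in the differences of rsrp1, rbm15 and clk4a was not tested.

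Whether the step from the low to the high level differed between PFOS and the mixture was tested by its own contrast, added after the data were seen. In 17 of 114 genes the step of PFOS less that of the mixture passed, 16 lower and 1 higher (2.64% and 13.2% of all genes). The higher was rbm47 (0.76 ± 0.17 log2 SE, limma adjusted p = 0.00773), and the lower ones included rbm25a (-0.54 ± 0.14, 0.0155), hnrnph1 (-0.42 ± 0.11, 0.0163), srsf5b (-0.36 ± 0.10, 0.0201) and srsf1b (-0.41 ± 0.12, 0.0267). Over all genes 2551 of 3061 calls were higher, against 1985 of 4303 with equal medians and 1401 of 2407 with quantile normalization. The contrast contains the PFOS10 libraries. The count was 5 without PFOS70 replicate 1 or POP70 replicate 4, and at most 11 without PFOS10 replicate 3, PFOS70 replicate 2, POP10 replicate 1, POP10 replicate 2 or POP70 replicate 3. It was 27 without PFOS10 replicate 4. Over all genes the 3061 calls became 1869 without PFOS70 replicate 1, 1770 without POP70 replicate 4 and 3803 without PFOS10 replicate 4.

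Zebrafish carry many of these genes as a and b duplicates, and 20 pairs of a and b symbols were compared. The pair tra2a and tra2b is counted among them, although these are separate vertebrate genes and not zebrafish duplicates. Of the 20 pairs, 19 had the same sign in PFOS70 against PFOS10, and both members passed in 6 and 1 in 10 (34.4% of all genes passed). Both passed in srsf1a and srsf1b, srsf2a and srsf2b, srsf5a and srsf5b, tra2a and tra2b, rbm25a and rbm25b, and, upwards, rbm24a and rbm24b. The pair with opposite signs was rbms2a (0.37 log2) and rbms2b (-0.00). In PFOS10 against Control 18 pairs had the same sign and both members passed in 1, the srsf1 pair (8.25% of all genes passed). In POP10 against PFOS10 all 20 had the same sign and both passed in 5 (31.4% of all genes passed). Pairs over all genes were not counted, so shared signs and joint calls have no share to be read against. A pair in which 1 member passed is not shown to differ between its members, which was not tested.

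The table holds several transcripts for most of these genes, 382 above the same low-value limit. Fitted one by one, 20 of the 382 transcripts rose and 6 fell in PFOS10 against Control. Of all 41336 transcripts 7.75% passed there, 400 of 3203 calls being higher. In POP70 against PFOS70, 0 were higher and 6 lower (0.0968% of all passed, 15 of 40 higher). In PFOS70 against PFOS10, 125 were lower and 9 higher (31.4% of all passed, 9260 of 12996 higher). In POP10 against PFOS10, 114 were lower and 10 higher (28.2% of all passed, 7476 of 11645 higher). All 4 rsrp1 transcripts rose in PFOS10 over Control (0.51 to 0.58 log2) and all 4 were lower in POP70 than in PFOS70 (-0.77 to -0.70). All 5 rbm5 transcripts were lower in POP10 than in PFOS10 (-0.73 to -0.62), as were both clk4a transcripts (-0.62 to -0.61). Other calls were shared by fewer transcripts. In PFOS70 against PFOS10, and likewise in POP10 against PFOS10, 1 of 4 srsf1a, 1 of 3 rbm4.1 and 3 of 6 tra2b transcripts passed, all being negative. Of the luc7l transcripts 2 of 5 passed in PFOS70 against PFOS10, all being negative. In POP70 against PFOS70, 0 of 2 clk4a transcripts passed, both being negative (limma adjusted p = 0.0575 over transcripts). In PFOS10 against Control, 2 of 5 rbm5, 1 of 4 srsf1a and 1 of 3 rbm4.1 transcripts passed, all being positive. In luc7l 4 were positive and 1 negative there, and 0 passed. The 3 transcripts of rbm47 fell in PFOS10 against Control by 0.51 to 1.19 log2. Transcripts of a gene share reads, so these are not independent measurements.

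To look for a shift between transcripts of a gene, each transcript was also set against the highest one of its symbol, an analysis added after the data were seen. Of 268 such transcripts from 83 of the genes, 4 passed in POP70 against PFOS70 (0.0181% of 22047 transcripts passed), all of srsf5a. In POP10 against PFOS10, 9 passed (0.816% of all), of which 5 were of srsf5a, 2 of rbm4.1 and 1 each of luc7l and hnrnpm. In PFOS70 against PFOS10, 12 passed (7.77% of all), none of srsf5a, and in PFOS10 against Control 0 did (0.231% of all). SRSF5 belongs to the SR proteins whose transcripts in mammals include forms that are not translated.

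The main transcript, srsf5a-201 (chromosome 13, 36530230 to 36535128), contains the span of srsf5a-202 (36530230 to 36535072) and exceeded it by 0.33 ± 0.03 log2 in POP70, 0.39 ± 0.06 in POP10, 0.55 ± 0.06 in PFOS70, 0.59 ± 0.05 in PFOS10 and 0.47 ± 0.03 in Control (SD, n = 4 each). Put as reads, 20.3%, 23.9%, 31.9%, 33.7% and 27.8% of those of srsf5a-201 were in excess over srsf5a-202. The gap was thus smaller with the mixture than with PFOS alone at each level, with no overlap at either (0.28 to 0.35 in POP70 and 0.50 to 0.64 in PFOS70). Against Control the gap did not pass in any exposure, with limma adjusted p = 0.138 in PFOS10 and 0.89 in PFOS70. The difference of the shorter transcript relative to the longer was 0.23 ± 0.03 log2 SE in POP70 against PFOS70 (limma adjusted p = 0.0436) and 0.20 ± 0.03 in POP10 against PFOS10 (0.0164). The 4 transcripts that passed, srsf5a-202, srsf5a-203, srsf5a-205 and srsf5a-206, overlap, and the last pair share their ends, so they amount to 1 call. At the higher level 0 passed with any library but PFOS70 replicate 2 left out, and at the lower level 1 passed without PFOS10 replicate 2 or POP10 replicate 3 and 2 without POP10 replicate 2. Which exon or intron carries the difference cannot be read from values per transcript.

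**Figure D3:**
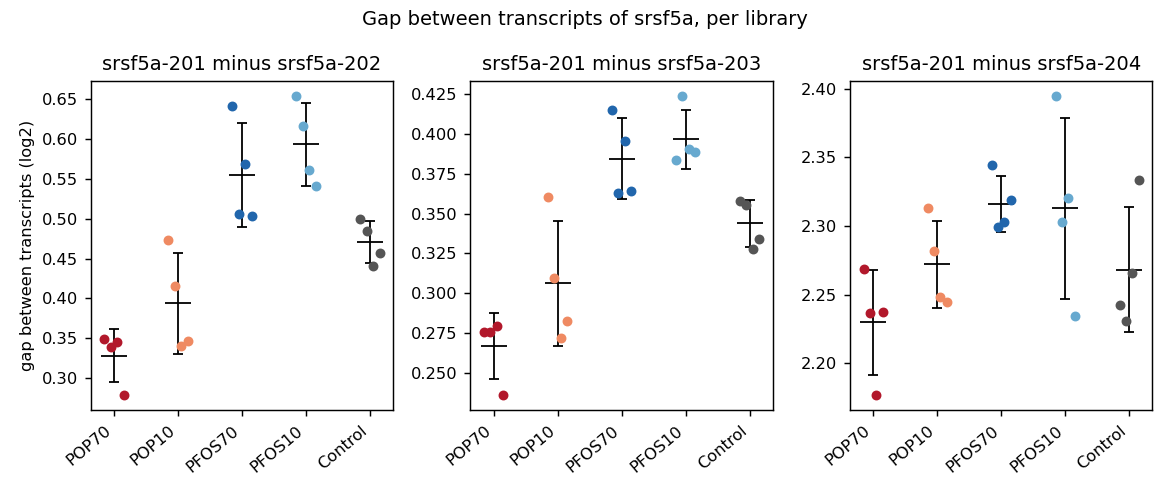
Gap between the main srsf5a transcript and 3 others (y axis, log2) in the 20 libraries by group (x axis). Points are libraries and bars the mean ± SD of 4; the gap to srsf5a-202 is 0.28 to 0.35 in POP70, below the 0.50 to 0.64 of PFOS70.

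Other genes of the splicing machinery were taken from lists outside the set. In PFOS10 against Control 0 of 60 further core spliceosome genes passed, with 48 positive and a median of 0.05 log2. Over all genes 1.28% rose, 6.97% fell and 45.6% were positive. Of 16 kinases and phosphatases of SR proteins, 2 rose: ppp1cab, a catalytic subunit of protein phosphatase 1 (0.30 ± 0.07 log2 SE, limma adjusted p = 0.0152), and srpk1a, the kinase that loads SR proteins for nuclear import (0.26 ± 0.08, 0.0403). In srpk1a the group means were 6.17 ± 0.10 log2 RPM in POP70, 6.30 ± 0.03 in POP10, 6.51 ± 0.08 in PFOS70, 6.67 ± 0.15 in PFOS10 and 6.41 ± 0.11 in Control (SD, n = 4 each). Of 29 SR-related genes 27 were positive, 0 rose and 1 fell, thrap3a (-0.65 ± 0.14, 0.0107). Of 25 genes of the exon junction complex and nonsense-mediated decay, 0 passed.

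Of 61 other splicing regulators, 4 rose and 2 fell in PFOS10 against Control (1.28% and 6.97% of all genes). The falls were those of esrp2 (-0.64 ± 0.12 log2 SE, limma adjusted p = 0.00465) and esrp1 (-0.61 ± 0.16, 0.0232), the epithelial splicing regulators, and the rises included ilf3a, a double-stranded RNA-binding protein gene (0.29 ± 0.07, 0.0223). Of 25 cold- and heat-responsive genes 1 rose, the collagen chaperone serpinh1b (0.76 ± 0.18, 0.017), and 1 fell, hspa8, the constitutive heat shock chaperone (-0.23 ± 0.07, 0.0409). Of the 61 regulators, 31 were lower and 6 higher in PFOS70 than in PFOS10, and of the 60 core genes 8 were lower and 0 higher (10.8% of all genes were lower and 23.6% higher).

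Markers of tissues moved with the PFOS10 group. Against Control, 6 of 10 hepatocyte, 4 of 9 intestine, 5 of 10 exocrine pancreas and 6 of 11 skin keratinocyte markers fell in PFOS10 and 0 of each rose (6.97% and 1.28% of all genes). Summed levels of the hepatocyte list were 289.6 to 1127.6 RPM in PFOS10 and 1027.0 to 3361.5 RPM in Control, and those of the keratinocyte list 11485.6 to 30209.0 and 23996.9 to 25711.3 RPM. All 9 neuron markers were positive and 1 rose (median 0.25 log2, summed 6348.0 to 8312.1 RPM in PFOS10 and 6057.6 to 7137.7 RPM in Control), 3 of 9 photoreceptor markers rose, and all 16 proliferating cell markers were positive with 0 past the test (median 0.18). In PFOS70 against PFOS10, 10 of 10 hepatocyte and 10 of 11 keratinocyte markers were higher and 8 of 9 neuron markers lower (23.6% and 10.8% of all genes). Of 14 skeletal muscle, 6 cardiac muscle, 6 lens and 3 germ cell markers 0 passed in PFOS10 against Control, and of 5 erythrocyte markers 1 fell. All 6 cardiac markers were negative there (median -1.08 log2, summed 21.7 to 33.6 RPM in PFOS10 and 33.7 to 43.7 RPM in Control), and 5 of 6 were higher in PFOS70 and in POP10 than in PFOS10 (23.6% and 19.8% of all genes). Apart from 1 germ cell marker in POP70 and in PFOS70, no marker that was tested lay below 0 log2 RPM in all 4 libraries of a group. Only 3 of 5 germ cell and 6 of 7 lens markers were tested. The rest of these did not reach 0 log2 RPM in at least 4 libraries and are not counted here. The part of the markers in the differences of the splicing genes was not tested.

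**Figure D4:**
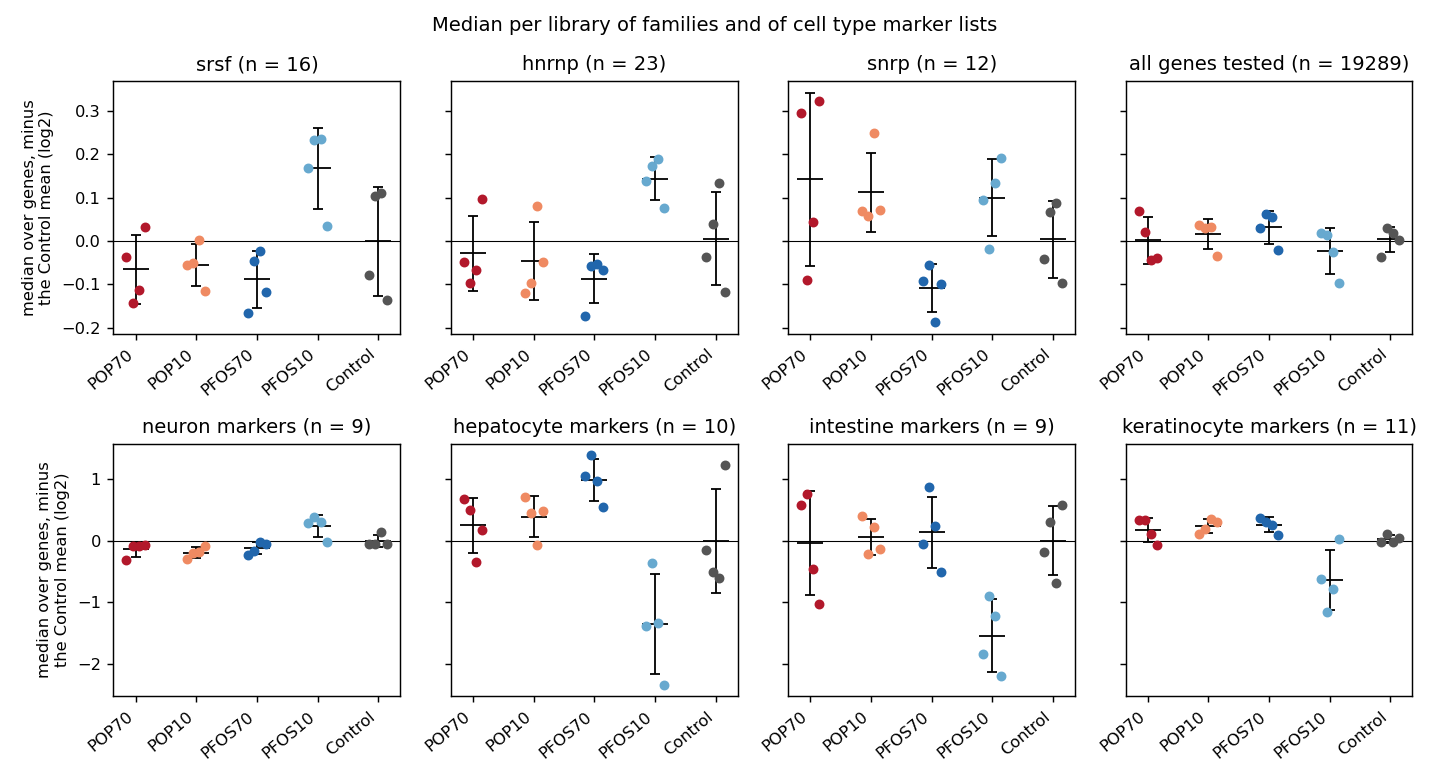
Median over the genes of each set in each library, minus the mean of the Control libraries (y axis, log2), by group (x axis). Points are libraries and bars the mean ± SD of 4; the srsf medians are 0.04 to 0.24 in PFOS10 and -0.13 to 0.11 in Control, the hepatocyte medians -2.34 to -0.36 in PFOS10 and -0.60 to 1.23 in Control, and all genes tested stay between -0.10 and 0.07.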

How the data were processed

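Poly-T selected mRNA of 20 pools of whole larvae was sequenced on an Illumina HiSeq, per the labels' protocols. Per the submitters' processing notes the tools include STAR 2.5.4b on GRCz11, Trim Galore 0.4.5, R 3.5.0 and DESeq2. Counting, strand and multi-mapping settings are not given in the sources used here. The authors deposited log2 RPM (reads scaled to library size) for each transcript. Every value in the range checked, which left out the highest counts, was a whole number of reads within 0.05 reads, with 0 reads written as 0.9 reads. Values are not divided by length, so levels are not compared between genes, and 30 of the 114 genes have 1 transcript. In 1662 rows, 2 of them used for these genes, the transcript name differs from the feature name.

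Genes at 0 log2 RPM or more in at least 4 of 20 libraries were fitted together with limma 3.58.1 (R 4.3.3), with a mean for each of 5 groups, a variance trend and 15 residual degrees of freedom, and each of 8 comparisons was adjusted by Benjamini-Hochberg over all genes tested at 0.05. The median SE of a difference over the 114 genes was 0.088 log2. Fits were tried on simulated reads drawn independently for each gene, without the shifts in library medians seen here. That trial does not show how the fits behave under such shifts. By rule, any srsf, clk, tra2, u2af or luc7l gene and rsrp1 could be named; of the snrp, hnrnp, sf3 and rbm genes, those past the threshold with smallest p, up to 8 a family and comparison, or with none past it the 1 of smallest p; and of each other list, up to 3 past the threshold in PFOS10 against Control. Other genes named complete a count or a pair, or were chosen after their values were seen. Alternatives changed the filter, scaling, damping at 16 RPM, variance trend, weights, transcript, samples fitted and replicate block, and used voom on the recovered reads. Members and lists were chosen with earlier results of these data known. The main fit did not pair libraries by replicate number. Deviations from group means correlated on average at 0.039 between same-numbered libraries and at -0.013 between others, which does not settle whether pools were paired. Exon and intron annotation was not used here.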

Additional observations from a re-analysis of the deposited data

Results flagged for a closer look

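In 16 of 335 groups of 4 libraries (67 genes in 5 groups, 4.78%) 1 library lay far from the other 3, its gap to the nearest divided by the whole range being above the critical value of Dixon's test. Chance gives about 1 in 20.

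In PFOS70, replicate 1 was low in hnrnpm (0.873), hnrnpub (0.834) and rbm25b (0.905), replicate 3 was high in srsf1b (0.877) and srsf5a (0.855), replicate 2 was high in snrpb (0.859) and replicate 4 was low in srsf1a (0.902). In PFOS10, replicate 4 was low in rbm6 (0.879), rbmx (0.869) and srsf4 (0.830). In POP70, replicate 1 was low in rbm4.2 (0.924) and high in rbms2a (0.863), and replicate 4 was low in rbm15 (0.847). In POP10, replicate 4 was low in luc7l3 (0.852) and rbmx (0.833), and replicate 3 was high in hnrnpub (0.890).

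The step from the low to the high level differed between PFOS and the mixture in 17 genes by the test of the difference itself, 16 lower and 1 higher (2.64% and 13.2% of all genes). That contrast was added after the data were seen, and the count ran from 5 to 27 with 1 library left out (1770 to 4143 over all genes).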

How the results depend on the processing

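Counts below are of the 114 genes, or of srsf5a transcripts, past the threshold, unless given over all genes. In PFOS10 against Control the 13 became 37 with equal medians, 33 with array weights, 8 with no variance trend and 5 with only the 2 groups fitted. Over all genes the 1591 calls there became 2219, 3661, 1127 and 933. With equal medians the count was 89 in PFOS70 against PFOS10, 71 in POP10 against PFOS10 and 57 in the dose difference. Over all genes these were 8399, 7218 and 4303, in place of 6634, 6051 and 3061. With only the 2 groups fitted 1 of the 114 passed in POP70 against PFOS70 (12 in place of 35 over all genes). The srsf5a transcripts in POP70 against PFOS70 numbered 0 with no variance trend, with array weights or with only the 2 groups fitted, and those in POP10 against PFOS10 numbered 0 with only the 2 groups fitted. The cause was not tested.

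With 1 library left out, counts ran from 2 to 24 in PFOS10 against Control, 36 to 61 in PFOS70 against PFOS10, 30 to 56 in POP10 against PFOS10, 0 to 3 in POP70 against PFOS70, 0 to 1 in POP70 against Control, 5 to 27 in the dose difference, 0 to 4 (POP70) and 1 to 5 (POP10) for srsf5a, and 0 to 0 in PFOS70 and POP10 against Control and POP70 against POP10. Over all genes calls ran from 367 to 2516 in PFOS10 against Control and 4986 to 7342 in PFOS70 against PFOS10. They ran from 4249 to 6884 in POP10 against PFOS10 and 4 to 45 in POP70 against PFOS70. In POP70 against Control they ran from 2 to 9, and in the dose difference from 1770 to 4143.

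A replicate block gave 1 in POP70 against Control, rbm5, and 18, 57, 48 and 2 in PFOS10 against Control, PFOS70 against PFOS10, POP10 against PFOS10 and POP70 against PFOS70. Over all genes these counts were 6, 1966, 6929, 6396 and 25. Same-numbered libraries deviated together over 0.1 in 12 of 40 pairs (-0.222 to 0.251), and 23 of 80 best matches had the same number. Of 1861 results for single genes under alternatives, 1638 kept their call, 223 lost it and none reversed. They cover only named genes already past the threshold, refitted on mostly the same libraries, so the share kept is no independent test. In PFOS10 against Control 2 of 13 named calls passed under all alternatives, and in POP70 against PFOS70 0 of 3. The number was 26 of 42 in PFOS70 against PFOS10 and 21 of 35 in POP10 against PFOS10. With 4 pools a group and a median SE of 0.088 log2, small differences were not detectable.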
